A study of Mus musculus with 31 samples.

Results

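The 10 glycolysis enzymes described here are the genes Hk1, Hk2, Pfkl, Pfkp, Pfkfb3, Aldoa, Tpi1, Pgk1, Pkm and Ldha, measured in scrapings of the mouse colon. They were chosen by symbol, with earlier results of these data known. Shares of the enzymes set beside shares of all genes are thus descriptions, not free of that choice. Each enzyme was read from the probe set with 1 gene symbol and the highest mean over the 31 arrays. They are 10 of 18820 genes with such a probe set and 10 of the 12795 genes bright enough to be tested, and all 10 passed that filter on all 31 arrays. The mice were male C57Bl/6J, 13 weeks of age. They ate a semi-synthetic diet based on palm oil, either low in fat (LFD, 10% of energy) or high in fat (HFD, 45% of energy). On 6 consecutive days every mouse, controls included, was lightly sedated and received 80 µL of an isotonic solution rectally. This was saline alone, or saline with 100 mM sodium acetate, sodium propionate or sodium butyrate, and the colon was taken 4 h after the last infusion. The 8 groups are therefore saline, acetate, propionate and butyrate on LFD and the same infusions on HFD, with n = 4 arrays each except acetate on LFD with n = 3. Each group had 6 mice by the labels, which do not tie arrays to mice, so the p-values measure the spread between these samples, which may in part be technical.

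Glycolysis turns glucose into pyruvate in the cytosol. Hexokinases trap glucose as its phosphate, phosphofructokinase commits the sugar to the pathway, aldolase and triosephosphate isomerase split it into interchangeable trioses, phosphoglycerate kinase and pyruvate kinase recover ATP, and lactate dehydrogenase turns pyruvate into lactate. The cells that line the colon are known for burning butyrate made by gut bacteria as a main fuel, with glucose as an alternative.

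The arrays read as colon lining: markers of colonocytes (7 genes tested) averaged a log2 level of 11.4 to 11.9 on every array and markers of goblet cells (5 genes) one of 12.5 to 12.7. On 4 arrays, namely propionate LFD 2, saline HFD 2 and saline LFD 2 and 3, the 12 markers of small-intestinal enterocytes had a mean of 8.00 to 8.41, against at most 6.48 on the other arrays. On saline HFD 1 and 2, the 10 smooth muscle markers had a mean of 6.64 and 6.45. Array medians lay between 5.14 and 5.19, and arrays of 1 group correlated with an r of 0.987 to 0.994. All levels below are log2 values normalised by RMA, and all differences are log2 differences ± the standard error of a limma fit, with p-values adjusted by the Benjamini-Hochberg method over the 12795 genes and a threshold of 0.05. A gene's level is not set against another gene's, since probes differ in their response. The number of arrays limits the precision. In scrapings, fewer cells of a type and less RNA per cell cannot be told apart.

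Under propionate infusion, 3 of the enzymes were lower on HFD than on LFD: Tpi1, which interconverts the trioses that aldolase makes, Pfkp, the platelet-type phosphofructokinase, and Ldha, the lactate dehydrogenase A chain. None was higher. Over all genes tested in this comparison 879 passed (6.87%), and 617 passed and were lower on HFD (4.82%). The median difference of the 10 enzymes was -0.19, beside -0.021 over all genes tested, and 8 of the 10 lay below 0. The question behind the comparison is whether the diet alters expression in a colon that receives this acid.

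Tpi1 had levels of 11.01, 10.92, 10.92 and 10.94 on the propionate LFD arrays and of 10.54, 10.68, 10.51 and 10.59 on the propionate HFD arrays. The groups did not overlap, and every HFD array lay more than 0.2 below the lowest LFD array. Tpi1 fell by 22.3%, a difference of -0.36 ± 0.095 (95% interval -0.56 to -0.17, limma adjusted p = 0.0260). Ldha, whose product makes lactate from pyruvate, read 12.44, 12.46, 12.53 and 12.46 on LFD and 12.18, 12.20, 12.04 and 12.37 on HFD. Here too the groups stood apart, with the fourth HFD array nearest to the LFD arrays. Ldha fell by 17.4%, a difference of -0.28 ± 0.074 (interval -0.43 to -0.12, limma adjusted p = 0.0283). Pfkp, a subunit of the committing enzyme of the pathway, read 10.01, 9.92, 9.87 and 9.80 on LFD and 9.66, 9.65, 9.49 and 9.73 on HFD. All 4 HFD arrays were lower than the lowest LFD array. Pfkp fell by 17.0%, a difference of -0.27 ± 0.070 (interval -0.41 to -0.12, limma adjusted p = 0.0267).

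Promoter windows of the 3 genes that passed are shown because the core letters read by the hypoxia-inducible factors (ACGTG or GCGTG) and by Myc (CACGTG) are the ones usually looked for at glycolysis genes. The windows are from RefSeq on GRCm38.p6, from 250 bases before to 50 bases from the transcript start. Each is written 5′ to 3′ on the gene's strand, with the cores in capitals, found on both strands. Pfkp lies at chr13:6648722-6649021 on the minus strand, Tpi1 at chr6:124814109-124814408 on the minus strand, and the first of the 2 Ldha windows at chr7:46845554-46845853 on the plus strand.
Pfkp: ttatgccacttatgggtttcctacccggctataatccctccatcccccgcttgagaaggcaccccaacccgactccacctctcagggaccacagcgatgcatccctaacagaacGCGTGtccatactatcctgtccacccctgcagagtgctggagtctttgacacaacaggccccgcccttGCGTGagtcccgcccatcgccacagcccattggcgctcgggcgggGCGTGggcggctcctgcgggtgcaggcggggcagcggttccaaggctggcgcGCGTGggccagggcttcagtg
Tpi1: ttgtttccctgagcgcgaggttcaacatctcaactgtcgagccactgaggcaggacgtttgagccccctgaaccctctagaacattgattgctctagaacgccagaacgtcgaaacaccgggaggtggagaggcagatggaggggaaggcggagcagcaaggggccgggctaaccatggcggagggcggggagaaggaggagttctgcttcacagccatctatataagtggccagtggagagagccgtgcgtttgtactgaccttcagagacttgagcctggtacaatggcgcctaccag
Ldha: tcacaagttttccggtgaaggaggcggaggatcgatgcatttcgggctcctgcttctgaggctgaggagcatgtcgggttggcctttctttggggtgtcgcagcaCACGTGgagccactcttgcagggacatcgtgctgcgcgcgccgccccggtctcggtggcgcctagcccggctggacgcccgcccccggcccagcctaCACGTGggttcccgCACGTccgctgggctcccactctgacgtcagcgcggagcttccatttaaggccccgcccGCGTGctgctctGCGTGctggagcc
The Pfkp window held 4 cores, all GCGTG, with first bases at -136, -68, -23 and 30 from the start site. The Ldha window held 7, of which 5 were ACGTG and 2 were GCGTG, and 4 of the ACGTG cores belong to its 2 CACGTG palindromes, which read ACGTG on each strand. The Tpi1 window held none, which says only that these letters are not in it. All 10 enzymes matched RefSeq entries, with 16 windows. ACGTG was in 9 of the 16 windows (7 of the 10 genes; 2 of the 9 are overlapping Aldoa windows that hold the same core) and in 19.6% of all 32851 windows of the same length. GCGTG was in 6 windows (5 genes) and in 32.4% of all windows. CACGTG was in 2 windows, those of 2 genes, and in 7.15% of all windows. Either of the hypoxia cores was in 12 windows (9 genes) and in 43.8% of all windows. Base composition was not matched in these shares, and a match is a description of letters, not a measured binding site.

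The other 7 enzymes did not pass under propionate. Aldoa, aldolase A, read 11.95, 11.88, 11.97 and 11.91 on LFD and 11.72, 11.87, 11.83 and 11.82 on HFD, also without overlap, with a difference of -0.12 ± 0.051 (limma adjusted p = 0.149). With Pfkp, Tpi1 and Ldha it makes 4 enzymes whose HFD arrays all lay below their LFD arrays, where 1122 of all genes (8.77%) did so. Pgk1, the first ATP-yielding kinase of the pathway, had a difference of -0.20 ± 0.080 (limma adjusted p = 0.123), and its first HFD array (10.63) lay within the LFD range. The hexokinases Hk1 and Hk2 had differences of -0.19 ± 0.096 and -0.34 ± 0.21 (limma adjusted p = 0.233 and 0.328), each with all 4 HFD arrays below the LFD mean. Pfkfb3, which makes and breaks the fructose bisphosphate that activates phosphofructokinase, had one of -0.15 ± 0.11 (limma adjusted p = 0.417). The liver-type phosphofructokinase Pfkl (0.03 ± 0.071) and pyruvate kinase Pkm (0.03 ± 0.094) were the 2 above 0. The second, dimmer probe set of Pkm lay on the other side of 0, at -0.12 ± 0.082 (limma adjusted p = 0.404 over all probe sets), so its sign is not settled.

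The 3 calls rest on few arrays. Without propionate LFD 3, propionate LFD 4, propionate HFD 2 or propionate HFD 3, none of the 10 enzymes passed, and over all genes 33, 114, 11 and 52 did. Without propionate LFD 1 only Ldha passed, and without propionate HFD 1 Pgk1 joined the 3. The differences kept their sign in all 44 alternatives, from -0.40 to -0.32 for Tpi1, from -0.30 to -0.22 for Pfkp and from -0.33 to -0.22 for Ldha. Adjusted p-values of the limma fit ran from 0.0098 to 0.0852, from 0.0058 to 0.110 and from 0.0040 to 0.118. Without the 4 arrays high in small-intestinal markers Tpi1 alone passed. With median centring, or with only the groups compared in the fit, Tpi1 and Ldha passed and Pfkp did not. Of the markers of dividing cells, 4 of the 9 tested passed and were lower on HFD in this comparison, beside 4.82% of all genes. They were Mcm5 (-0.76 ± 0.18), Mcm4 (-0.68 ± 0.17) and Mcm2 (-0.59 ± 0.17), subunits of the helicase that opens DNA for replication, and Rrm2 (-0.82 ± 0.23), which makes deoxynucleotides. The mean level of these 9 markers ran from 7.64 to 8.00 in propionate LFD and from 7.02 to 7.66 in propionate HFD. The 7.66 is that of propionate HFD 1. Other marker lists had no call. Below 0 lay 6 of 7 colonocyte markers (median -0.15), 9 of 10 of smooth muscle and 10 of 12 of small-intestinal enterocytes. Of all genes tested 54.3% lay below 0. Adipocyte markers had 3 of 3 below 0, lymphocyte markers 3 of 4 and distal colon markers 3 of 4. Crypt stem and fibroblast markers had 3 of 5 each. Of goblet cell markers 2 of 5 lay below 0, of macrophage and dendritic markers 1 of 5 and of endothelium markers 1 of 3. Proximal colon markers had 0 of 2, and the red blood cell marker lay above 0. The part of any of these markers in the result was not tested.

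**Figure D1:**
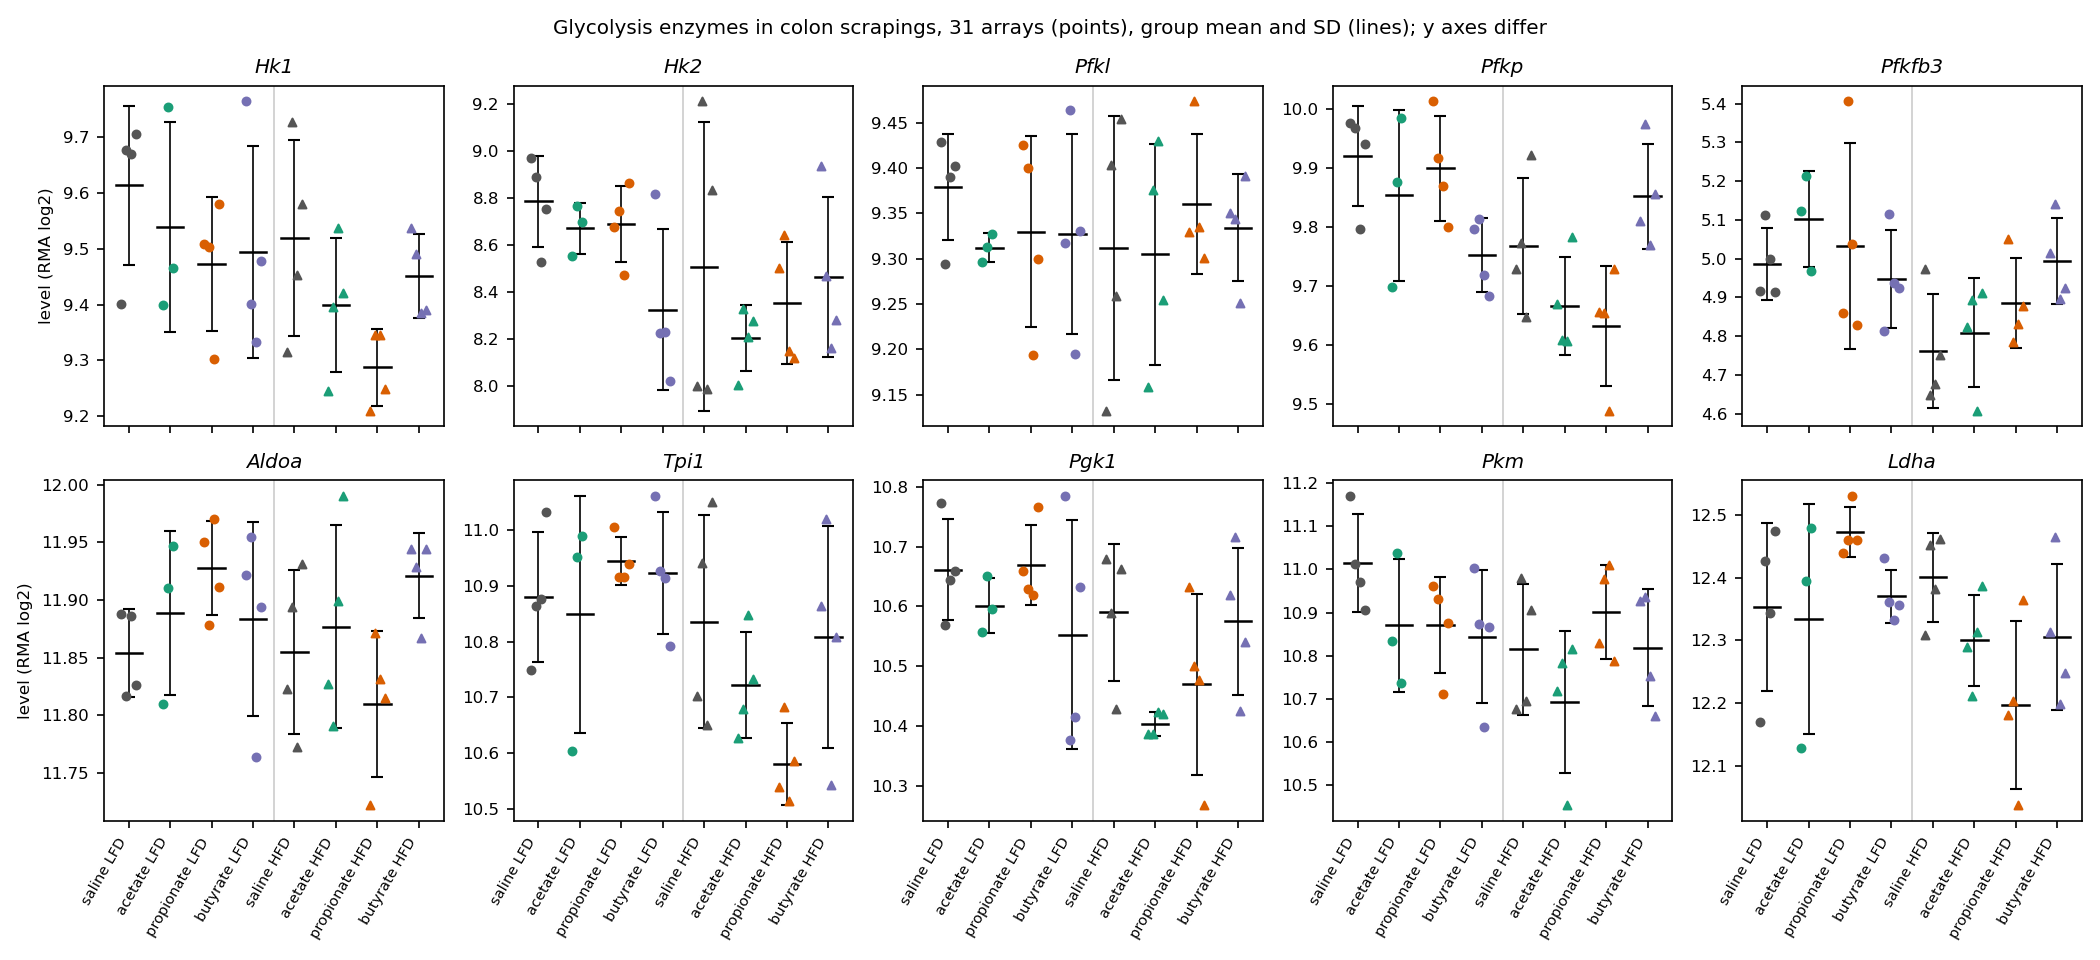
Log2 levels (RMA) of the 10 glycolysis enzymes on 31 arrays, 1 panel per gene with its own y axis; circles are LFD arrays, triangles HFD arrays, and lines give each group's mean and SD. Propionate HFD (orange triangles) lies below propionate LFD (orange circles) without overlap for Pfkp, Aldoa, Tpi1 and Ldha.

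Over all 4 infusions, none of the 10 enzymes passed the test for diet, while 345 genes did (2.70%). All 10 differences lay below 0 (8 of them after quantile normalization), as did 47.6% of all genes tested, and 7 of the 10 had an unadjusted p under 0.05, as had 21.7% of all genes. The median was -0.11, beside 0.0051 over all genes. These are small differences: the largest, that of Hk2, amounts to 15.0%. Leaving out 1 array at a time let at most 2 of the 10 pass.

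Among the hexokinases, Hk1 had 15 LFD arrays from 9.30 to 9.76 (median 9.50) and 16 HFD arrays from 9.21 to 9.73 (median 9.39). The ranges overlap almost wholly, and 14 of the 16 HFD arrays lay below the LFD mean of the same infusion. The difference was -0.12 ± 0.049 (limma adjusted p = 0.165). Hk2, the inducible hexokinase, ran from 8.02 to 8.97 on LFD (median 8.70) and from 7.99 to 9.21 on HFD (median 8.28). The highest and the lowest of all 31 levels of Hk2 are both saline HFD arrays, whose 4 levels were 8.00, 9.21, 7.99 and 8.83. Its difference was -0.24 ± 0.11 (limma adjusted p = 0.192, 12 of 16 HFD arrays lower).

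Of the phosphofructokinase genes, Pfkp lay closest to the threshold. Its LFD arrays ran from 9.68 to 10.01 (median 9.87) and its HFD arrays from 9.49 to 9.98 (median 9.73). The difference was -0.13 ± 0.036 (limma adjusted p = 0.0515, 11 of 16 HFD arrays lower), and it passed in 12 of 43 alternatives. Pfkl stayed at 9.13 to 9.47 over all arrays, with a difference of -0.01 ± 0.036 whose sign turned in 5 of 43 alternatives (limma adjusted p = 0.909). Pfkfb3 ran from 4.81 to 5.41 on LFD and from 4.61 to 5.14 on HFD, near the filter at 4.32, so that its difference of -0.15 ± 0.055 (limma adjusted p = 0.0978, 13 of 16 lower) comes from a dim probe set.

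The enzymes of the triose stage gave unequal values. Aldoa, at 11.72 to 11.99 over all arrays, had a difference of -0.02 ± 0.026 (limma adjusted p = 0.644, 9 of 16 HFD arrays lower). Tpi1 ran from 10.60 to 11.06 on LFD (median 10.92) and from 10.51 to 11.05 on HFD (median 10.69), and 13 of 16 HFD arrays lay below the LFD mean of their infusion. Its difference was -0.16 ± 0.048 (limma adjusted p = 0.0588), past the threshold in 9 of 43 alternatives. A second, dimmer probe set of Tpi1 (mean level 6.21, r = 0.75 with the first over 31 arrays) had a difference of -0.18 ± 0.042 over all infusions (limma adjusted p = 0.0347 over all probe sets) and of -0.27 ± 0.082 under propionate (0.0498). Whether it reads the gene itself or a processed copy is not stated in the annotation used here.

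In the payoff stage, Pgk1 ran from 10.38 to 10.78 on LFD and from 10.27 to 10.72 on HFD, with a difference of -0.11 ± 0.041 (limma adjusted p = 0.112, 12 of 16 lower). It has 3 probe sets: 1 besides that used held values identical to those used, and the other had an r of 0.986 with them. Pkm, pyruvate kinase M, had a difference of -0.09 ± 0.048 (limma adjusted p = 0.254, 12 of 16 lower). Its second probe set (r = 0.44 with the first) gave -0.11 ± 0.042 (limma adjusted p = 0.169 over all probe sets). For Pgk1 and Pkm too, the annotation used here does not state whether a probe set reads the gene itself or a processed copy. Ldha ran from 12.13 to 12.53 on LFD and from 12.04 to 12.47 on HFD, with a difference of -0.08 ± 0.038 (limma adjusted p = 0.204, 11 of 16 lower).

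Under the other infusions, no gene at all passed for diet (0% of genes in each comparison), and limma called none of the 10 enzymes. Under saline 8 of 10 lay below 0 with a median of -0.083, and 3 (Pfkp, Pfkfb3 and Pkm) had an unadjusted p under 0.05. Of all genes 47.4% lay below 0 there and 7.28% had such a p. Under acetate all 10 lay below 0 with a median of -0.16, and 4 (Hk2, Pfkp, Pfkfb3 and Pgk1) had an unadjusted p under 0.05, beside 47.3% and 7.71% of all genes. Of these 4, Pgk1 had the smallest spread within both groups: its acetate LFD arrays read 10.56, 10.65 and 10.60 and its acetate HFD arrays read 10.39, 10.39, 10.42 and 10.42, a difference of -0.20 ± 0.087 (limma adjusted p = 0.629). With Hk2 (-0.47 ± 0.22) and Pfkfb3 (-0.29 ± 0.12) it makes 3 enzymes whose acetate HFD arrays all lay below the acetate LFD arrays, where 535 of all genes (4.18%) did so. Under butyrate 4 of 10 lay below 0 with a median of 0.015, and no enzyme had an unadjusted p under 0.05, beside 41.0% and 3.67% of all genes. Pfkp was 0.10 ± 0.070 higher on HFD there (not past the threshold), with levels of 9.80, 9.81, 9.72 and 9.68 on LFD and 9.81, 9.98, 9.77 and 9.86 on HFD.

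**Figure D2:**
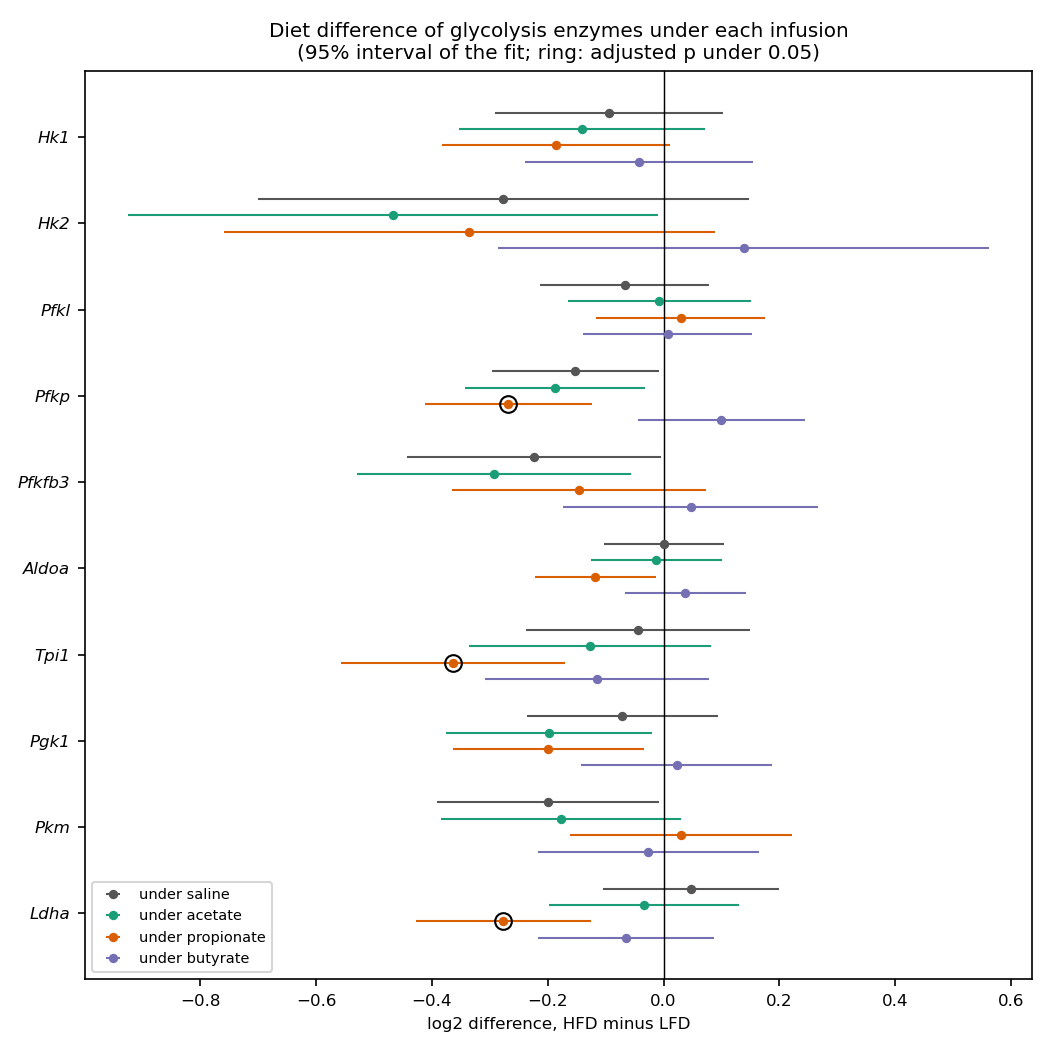
Diet difference (HFD minus LFD, log2) of each glycolysis enzyme under saline, acetate, propionate and butyrate; points are estimates of the fit, lines 95% intervals, and rings mark adjusted p under 0.05. The 3 rings are Pfkp (-0.27), Tpi1 (-0.36) and Ldha (-0.28), all under propionate, and the butyrate points lie on both sides of 0, 4 of the 10 below it.

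That the diet difference passed under propionate and not under the other infusions does not show that it differed between infusions, so the differences were tested against each other. Against saline, that test is the difference of the propionate response between diets, which limma called for no gene (0%) and for none of the enzymes, 2 of which had an unadjusted p under 0.05, as had 12.8% of all genes. Ldha had the largest, -0.32 ± 0.10 (limma adjusted p = 0.205), followed by Tpi1 with -0.32 ± 0.13 (0.308). The other 8 had values of -0.09 ± 0.14 (Hk1), -0.06 ± 0.29 (Hk2), 0.10 ± 0.10 (Pfkl), -0.12 ± 0.10 (Pfkp), 0.08 ± 0.15 (Pfkfb3), -0.12 ± 0.072 (Aldoa), -0.13 ± 0.11 (Pgk1) and 0.23 ± 0.13 (Pkm). Against butyrate, a comparison added after the values were seen, the median was -0.20, Pfkp had -0.37 ± 0.10 (limma adjusted p = 0.221) and Aldoa -0.16 ± 0.072 (0.341), these 2 at an unadjusted p under 0.05, as were 1764 of the 12795 genes tested. Against acetate, likewise added, the median was -0.02 and Ldha (-0.24 ± 0.11, limma adjusted p = 0.332) was the 1 enzyme at an unadjusted p under 0.05, as were 13.3% of all genes. No gene passed in either (0% and 0%). For the acetate and butyrate responses, limma also called no gene (0% and 0%), with 0 and 1 enzymes at an unadjusted p under 0.05 (0.844% and 2.27% of all genes), the 1 being Pfkp under butyrate (0.25 ± 0.10, limma adjusted p = 0.999).

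The acids against saline on the same diet ask what each infusion did. The 3 acids are linear carboxylates that differ in chain length, given at the same concentration and time. In all 6 comparisons limma called no gene (0% in each) and none of the enzymes. On LFD the medians of the 10 were -0.06 for acetate, -0.01 for propionate and -0.08 for butyrate, with 0, 0 and 2 enzymes at an unadjusted p under 0.05, as were 1.51%, 3.81% and 2.80% of all genes. The 2 are Hk2 (-0.46 ± 0.21) and Pfkp (-0.17 ± 0.070) under butyrate. The butyrate LFD levels of Hk2, 8.82, 8.23, 8.23 and 8.02, overlapped those of saline LFD, 8.97, 8.89, 8.53 and 8.75, through 1 array.

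On HFD the medians were -0.11 for acetate, -0.13 for propionate and -0.01 for butyrate, with 1, 3 and 1 enzymes at an unadjusted p under 0.05, as were 2.51%, 11.7% and 4.01% of all genes. The 3 under propionate were Tpi1 (-0.26 ± 0.095), Ldha (-0.20 ± 0.074) and Hk1 (-0.23 ± 0.096), with limma adjusted p-values of 0.307, 0.295 and 0.366. The saline HFD levels of Tpi1, 10.70, 10.94, 10.65 and 11.05, reached into the propionate HFD range. For Ldha the saline HFD levels were 12.31, 12.45, 12.38 and 12.46, and the highest propionate HFD array (12.37) lay among them. No enzyme had propionate HFD arrays all below the saline HFD arrays, where 379 of all genes (2.96%) had. The other 7 under propionate on HFD ranged from -0.15 (Hk2) to 0.12 (Pfkfb3), with Pfkp at -0.14, Pgk1 at -0.12, Aldoa at -0.04, Pfkl at 0.05 and Pkm at 0.09. The propionate median of -0.13 on HFD varied with the arrays used. Dropping the 4 arrays of raised enterocyte marker levels made it -0.08. Dropping saline HFD 1 and 2, of raised muscle marker levels, made it -0.07. With 1 array dropped at a time it lay between -0.18 and -0.07. Hk2 kept its sign in 42 of 44 alternatives. Under propionate on LFD, the 10 ranged from -0.14 (Hk1 and Pkm) to 0.12 (Ldha), with Tpi1 at 0.06 and Pfkp at -0.02. The remaining 2 on HFD were Pgk1 under acetate (-0.19 ± 0.080) and Pfkfb3 under butyrate (0.23 ± 0.11). Taking the acids together, with the diets averaged, limma called no gene (0%), and Hk1 (-0.13 ± 0.056) was the 1 enzyme at an unadjusted p under 0.05, as were 3.87% of all genes.

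**Figure D3:**
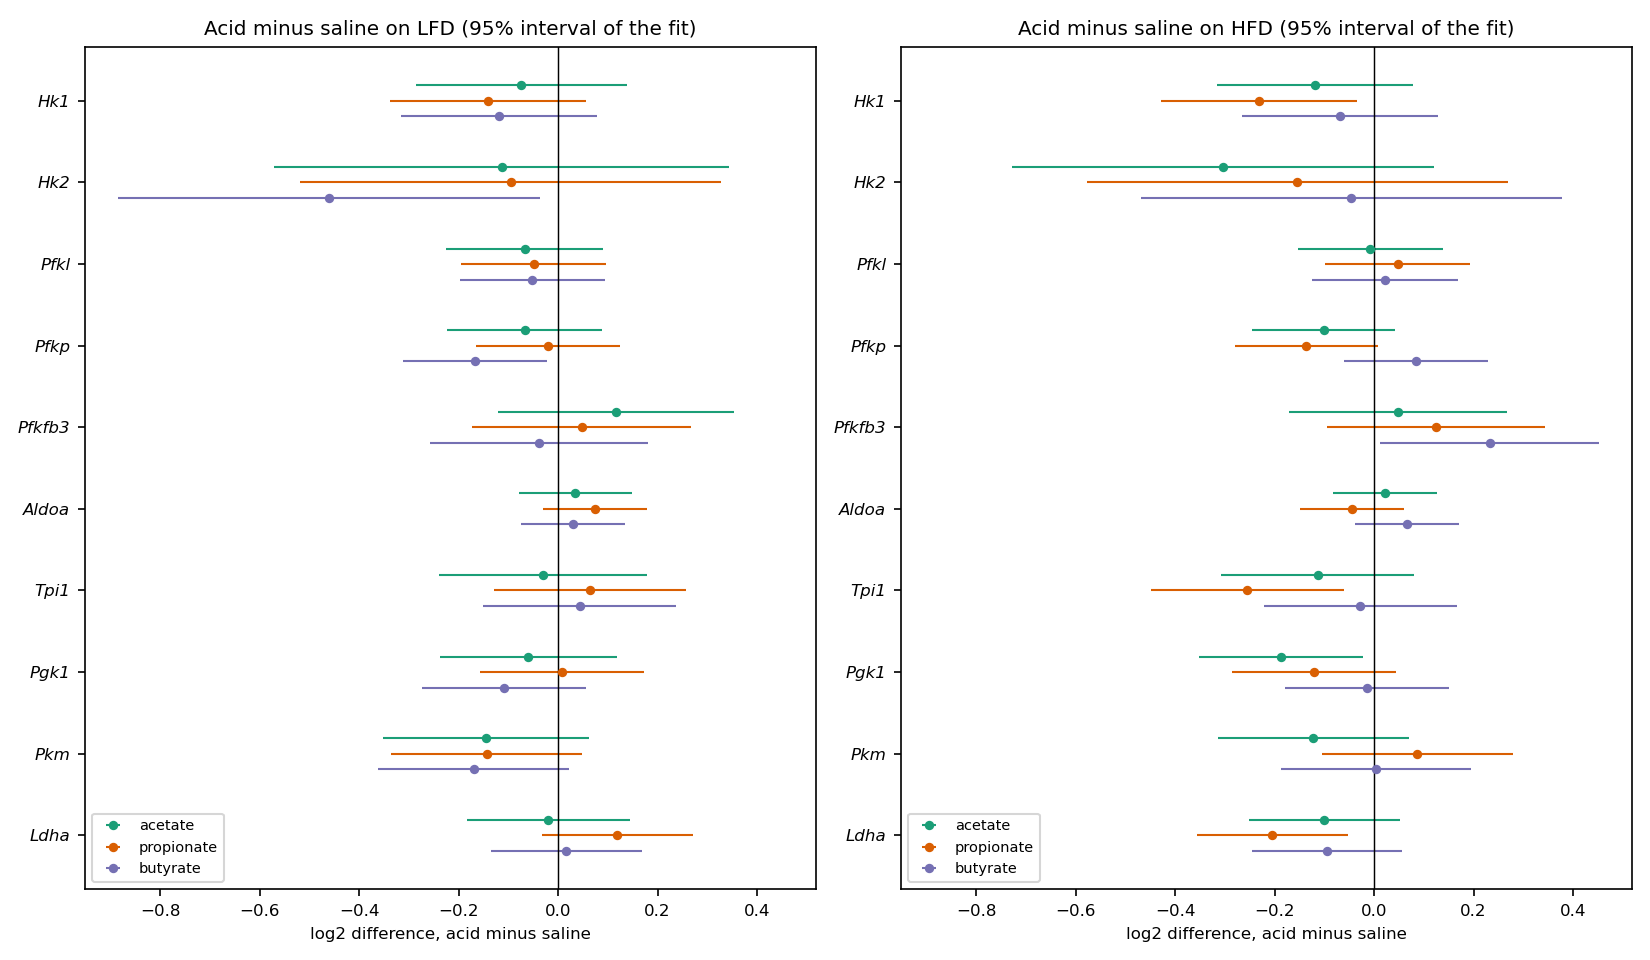
Acid minus saline (log2) for each glycolysis enzyme on LFD (left) and HFD (right); points are estimates of the fit and lines 95% intervals. No difference passed the adjusted threshold; on HFD the propionate values of Tpi1 (-0.26), Hk1 (-0.23) and Ldha (-0.20) have intervals below 0.

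Set against each other at the same dose and time, the acids gave 6 comparisons over the 10 enzymes. On LFD none of the 3 comparisons had a gene past the threshold (0%, 0% and 0%), and 1 enzyme, Pfkp for butyrate minus propionate (-0.15 ± 0.070), had an unadjusted p under 0.05, as had 3.62% of all genes there. On HFD, propionate minus acetate and butyrate minus acetate had none (0% and 0%), with 1 and 2 enzymes at that unadjusted level, as were 13.2% and 3.64% of all genes. Pkm was 0.21 ± 0.094 higher under propionate than under acetate, and Pfkp 0.19 ± 0.070 and Pgk1 0.17 ± 0.080 higher under butyrate than under acetate, none past the adjusted threshold. Butyrate minus propionate on HFD had 8 genes past it (0.0625%), none of them among the 10. There Pfkp had 0.22 ± 0.070 (interval 0.08 to 0.37, limma adjusted p = 0.132), Tpi1 0.23 ± 0.095 (interval 0.03 to 0.42, 0.210) and Aldoa 0.11 ± 0.051 (interval 0.01 to 0.22, 0.254), these 3 at an unadjusted p under 0.05, as were 17.3% of all genes. Pfkp read at least 9.77 on the butyrate HFD arrays and at most 9.73 on the propionate HFD arrays. How many of all genes stood apart in this way was not counted, so the separation is a description only. The 95% intervals of the 10 enzymes together reached from -0.32 to 0.53 in that comparison, bounds that are both those of Hk2, the enzyme with the widest spread, and the other 9 have narrower intervals.

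By group mean, propionate HFD was the lowest of the 8 groups for 5 enzymes (Hk1, Pfkp, Aldoa, Tpi1 and Ldha), acetate HFD for 4 (Hk2, Pfkl, Pgk1 and Pkm) and saline HFD for Pfkfb3. The highest was saline LFD for Hk1 (9.61 ± 0.14, SD, n = 4), Hk2 (8.78 ± 0.19), Pfkl (9.38 ± 0.059), Pfkp (9.92 ± 0.084) and Pkm (11.01 ± 0.11). It was propionate LFD for Aldoa (11.93 ± 0.041), Tpi1 (10.94 ± 0.043), Pgk1 (10.67 ± 0.067) and Ldha (12.47 ± 0.040). No gap between neighbours in this order exceeded the pooled SD of the groups for any of the 10 genes. Tpi1, for example, ran in order through propionate LFD at 10.94, butyrate LFD at 10.92, saline LFD at 10.88, acetate LFD at 10.85, saline HFD at 10.84, butyrate HFD at 10.81, acetate HFD at 10.72 and propionate HFD at 10.58. Ldha ran from 12.47 in propionate LFD through 12.40 in saline HFD, 12.37 in butyrate LFD, 12.35 in saline LFD, 12.33 in acetate LFD, 12.31 in butyrate HFD and 12.30 in acetate HFD to 12.20 in propionate HFD. Pfkp put saline LFD (9.92), propionate LFD (9.90) and acetate LFD (9.85) first, butyrate HFD (9.85), saline HFD (9.77) and butyrate LFD (9.75) next, and acetate HFD (9.67) and propionate HFD (9.63) last.

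Averaged over the 10 enzymes, each centred on its own mean over the 31 arrays, the 4 saline LFD arrays lay at 0.10, 0.12, 0.06 and 0.11. All 4 acetate HFD arrays (-0.17, -0.10, -0.11 and -0.05) and all 4 propionate HFD arrays (-0.08, -0.03, -0.15 and -0.14) lay below 0. The saline HFD arrays were split, at -0.11, 0.11, -0.15 and 0.11, and so were the butyrate HFD arrays, at 0.08, 0.10, -0.12 and -0.04. On saline HFD 3 a single enzyme lay above its own mean, and on saline HFD 4 all but 1 did.

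**Figure D4:**
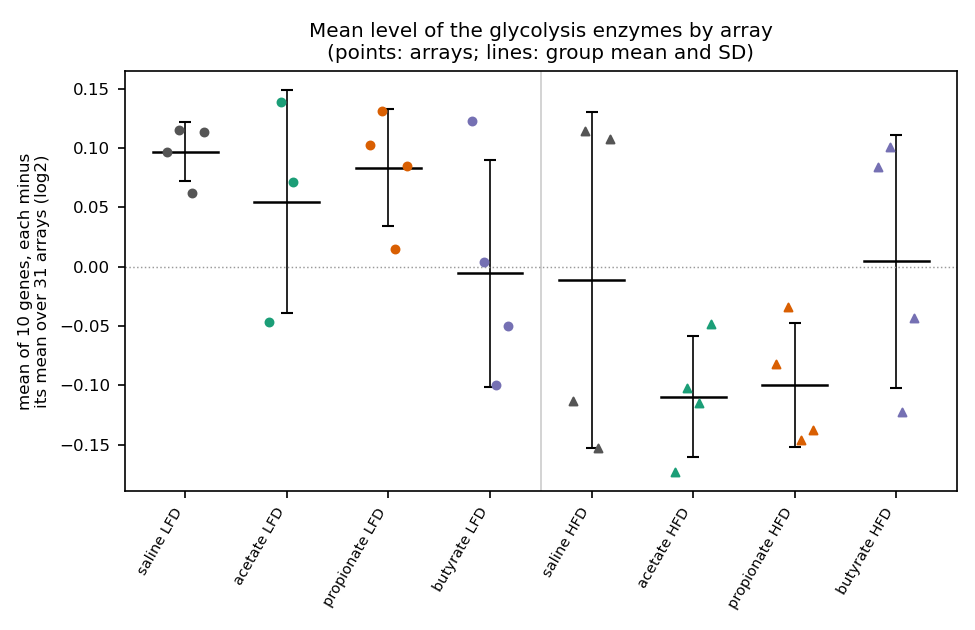
Mean of the 10 glycolysis enzymes on each array (log2), each gene centred on its mean over 31 arrays; circles are LFD arrays, triangles HFD arrays, and lines give group mean and SD. The acetate HFD and propionate HFD arrays all lie below 0, while saline HFD splits into arrays near 0.11 and arrays at -0.11 and -0.15.

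Within groups, the enzymes varied together in part. After removal of group means, the 45 pairs of enzymes had a median r of 0.34 over 31 arrays, from -0.23 to 0.72, and 38 were above 0. Tpi1 and Ldha had the highest (0.72), followed by Pfkp with Ldha (0.62), Pfkp with Tpi1 (0.62), Hk1 with Tpi1 (0.62) and Hk1 with Hk2 (0.60). The points of a pair share the array, its RNA and its normalisation, so these values are descriptions. The 5 other genes whose levels followed the mean of the 10 enzymes most closely over the 31 arrays were Aacs, which activates acetoacetate (r = 0.90), the squalene epoxidase Sqle (0.88), the fatty acid synthase Fasn (0.88), Tnfaip1 (0.88) and the coatomer subunit Copg1 (0.86). With group means removed, the values were 0.86, 0.80, 0.80, 0.86 and 0.77. For diet over all infusions Aacs (-0.42 ± 0.082), Sqle (-0.61 ± 0.13) and Fasn (-0.35 ± 0.077) passed with limma adjusted p-values of 0.0161, 0.0199 and 0.0199, while Tnfaip1 (-0.14 ± 0.043) and Copg1 (-0.12 ± 0.036) had 0.0677 and 0.0616. These 5 were picked for following the enzymes, whose differences for diet lay below 0. Their direction is thus partly set by the choice, and their p-values do not allow for it.

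The rest of the pathway was read from fixed lists, in which lower and higher mean past the threshold. Of all 12795 genes tested, 196 were higher and 149 lower on HFD over all infusions. Under propionate 262 were higher and 617 lower. Of 22 other glycolytic enzymes and isozymes 16 had a probe set with 1 symbol and 13 were tested. Under propionate 2 of the 13 were lower on HFD, with a median of -0.20: the phosphoglycerate mutase Pgam1 (-0.45 ± 0.11, limma adjusted p = 0.0246) and the pyruvate kinase Pklr (-0.25 ± 0.071, 0.0356). Gapdh, the dehydrogenase of the triose stage, did not pass (-0.12 ± 0.041, limma adjusted p = 0.0724). Over all infusions 10 of the 13 lay below 0 and 1 passed, Pfkfb2, an isozyme of Pfkfb3 (-0.15 ± 0.032, limma adjusted p = 0.0199). Of 10 tested carriers of glucose and lactate, the sodium-coupled glucose transporter Slc5a1 was the 1 that passed, lower on HFD over all infusions (-0.16 ± 0.045, limma adjusted p = 0.0494) and under propionate (-0.39 ± 0.088, 0.0156).

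At the exits of the pathway, 17 genes of pyruvate use and gluconeogenesis were tested. Over all infusions 2 were higher on HFD: Pdk2, a kinase that switches off pyruvate dehydrogenase (0.27 ± 0.062, limma adjusted p = 0.0207), and Pck1, the cytosolic enzyme that makes phosphoenolpyruvate (0.29 ± 0.078, 0.0386). Under propionate 2 others were lower: Dld, a subunit shared by pyruvate dehydrogenase and related complexes (-0.49 ± 0.11, limma adjusted p = 0.0156), and Pdk3 (-0.47 ± 0.13, 0.0352). Of the 11 tested genes of the pentose phosphate and hexosamine branches, Pgd, the phosphogluconate dehydrogenase, was lower over all infusions (-0.17 ± 0.036, limma adjusted p = 0.0191) and under propionate (-0.38 ± 0.071, 0.0133). Under propionate the epimerase Rpe was lower as well (-0.39 ± 0.11, limma adjusted p = 0.0352) and the isomerase Rpia higher (0.28 ± 0.076, 0.0305).

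Of the regulators, none of the 17 tested genes of the list of hypoxia factors and their targets outside glycolysis passed in either comparison. Their medians were -0.02 over all infusions and -0.05 under propionate. Those with the smallest p over all infusions were Bnip3l, a mitophagy receptor (0.14 ± 0.043, limma adjusted p = 0.0585), and Higd1a (-0.22 ± 0.070, 0.0735), on opposite sides of 0. The 10 tested genes of the list of Myc and growth regulators had a median of 0.13 over all infusions, and 3 were higher on HFD: the Myc antagonist Mxd4 (0.26 ± 0.057, limma adjusted p = 0.0199), the glucose-sensing factor Mlxip (0.19 ± 0.041, 0.0199) and Max, the partner of Myc (0.19 ± 0.049, 0.0391). Under propionate 4 were higher on HFD: Txnip (0.27 ± 0.073, limma adjusted p = 0.0281) and Arrdc4 (0.28 ± 0.088, 0.0480), arrestin-like proteins that restrain glucose uptake, together with Mxd4 (0.38 ± 0.11, 0.0393) and Myc itself (0.49 ± 0.15, 0.0435). The lists outside the 10 enzymes had 13, 10, 17, 11, 17 and 10 genes tested, in the order given. Of these genes 8 passed over all infusions and 12 under propionate, beside 2.7% and 6.87% of all genes tested. The 12 became 4, 7, 1 and 2 without propionate LFD 1, 2, 3 and 4 in turn, and 1 each without propionate HFD 2 and 3.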

How the data were processed

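Total RNA of 31 samples was hybridised to single-colour whole-transcript arrays, 1 array per sample. The authors deposited log2 values made by RMA (background correction, quantile normalization and summary to probe sets), per the submitters' processing notes. Its version and the genome build are not given in the sources used. Of 35556 probe sets, 21218 carry 1 gene symbol in the annotation used, 1881 several and 12457 are not listed. The probe set with the highest mean stood for each of 18820 genes, and genes with an intensity of at least 20 on at least 3 arrays were tested (12795).

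A model with 1 mean per group was fitted to all 31 arrays in R 4.3.3 with limma 3.58.1, moderating variances with a trend over intensity, with Benjamini-Hochberg adjustment per comparison and a threshold of 0.05. Errors pool the spread over the 8 groups. Genes named besides the 10 enzymes are list members past the threshold (up to 6 per list, or the 2 with the smallest p), Gapdh, 4 cell cycle markers and the 5 genes most correlated with the enzymes' mean. Gapdh and the markers were picked after their values were seen. The enzymes and lists were chosen with earlier results of these data known. The code was tested on simulated data. Promoter windows came from RefSeq.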

Additional observations from a re-analysis of the deposited data

Results flagged for a closer look

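Hk1, the hexokinase found in most tissues, stood low on 1 array. On saline LFD 1 its log2 level was 9.40, with the nearest array of the group at 9.67 and a gap of 0.88 of the group's range, past the 95% critical value of Dixon's test for 4 samples. Of 70 sets of 4 arrays examined (the 10 enzymes in 7 groups), this was the 1 past the critical value, and chance alone puts about 1 in 20 there.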

How the results depend on the processing

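For diet over all infusions, none of the 10 enzymes passed in the fit reported. With a mean log2 level of at least 6 required, 2 passed (Pfkp and Tpi1), with array weights 5 (Hk1, Pfkp, Tpi1, Pgk1 and Ldha), and 1 each with the mean of a gene's probe sets (Tpi1), with median centring (Pfkp) and with the replicate number as a block (Pfkp, where 454 genes passed in place of 345). Leaving out 1 array gave 0 to 2 enzymes and 127 to 1027 genes. It gave 2 without saline LFD 3, acetate LFD 1, butyrate LFD 4, saline HFD 4 or butyrate HFD 2, and 1 without saline LFD 1, acetate HFD 4, propionate HFD 1 or propionate HFD 4. Under propionate, leaving out 1 array gave 0 to 4 enzymes and 11 to 1731 genes, and a fit without the 4 arrays of high small-intestinal marker levels, chosen after seeing the data, left 1 (Tpi1). Median centring left 2 under propionate (Tpi1 and Ldha, with 765 genes). A fit of only the groups compared left the same 2, with 601 genes. Array weights gave 4 there (Pfkp, Tpi1, Pgk1 and Ldha). By the replicate numbers, over 105 same-numbered pairs of arrays, deviations from group means correlated with a median r of 0.04, from -0.50 to 0.47, and 42 were over 0.1. Of the 28 pairs of groups, 1 (saline LFD with saline HFD, r of 0.12 to 0.29) had all its pairs over 0.1, and with the block limma still called 0 enzymes and 0 genes for diet under saline. The labels name no batch, so what a shared number stands for is not known for any pair of groups. The block left the 3 calls under propionate, and besides adding Pfkp for diet over all infusions it changed no other call of the 10. Over all genes, array weights raised the counts to 1788 and 2652, all probe sets gave 1326 under propionate, the fit without the small-intestinal arrays 559 for diet, and one without the 2 arrays of high smooth muscle levels, also chosen after seeing the data, 115. For propionate minus saline on HFD and the difference of its response, array weights called 213 and 101 genes, none of them an enzyme, where the fit reported called none. Of the pathway lists, where 8 genes passed for diet, 21 passed with array weights, 5 over all probe sets, 5 without the smooth muscle arrays and 5 to 14 without 1 array (14 without saline LFD 3). Under propionate, where 12 passed, 19 passed with array weights and 1 to 14 without 1 array. No call of the 10 enzymes turned its direction, and the direction of other genes was not followed over these alternatives. The cause was not tested. Dim probe sets such as that of Pfkfb3 limit what these arrays can show.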
